A study of Mus musculus with 20 samples.

Results

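The levels of 10 genes of the vessel wall and of leukocyte adhesion were followed in mouse trachea before and after epithelial injury: Pecam1, Cdh5, Kdr, Flt1, Tek, Vwf, Sele, Selp, Icam1 and Vcam1. All non-control probes carrying 1 of these gene names were taken, which gave 24 of the 41174 probes on the array, for 10 of its 27962 gene names. The 20 samples were whole tracheas of C57/Bl6 mice aged 4 months by their labels, trimmed of excess connective tissue, with 1 one-colour Agilent array each. Wild-type and Myd88KO mice were each sampled without treatment (uninjured, 5 arrays per genotype) and 3 days after 2% polidocanol, a detergent that strips the tracheal epithelium (injured, 5 arrays per genotype). The Myd88KO mice lack Myd88 in every cell, and came from a knockout colony that was kept apart from the in-house wild-type colony, so that genotype and colony cannot be told apart. Both male and female mice were used in the study and the sex of each sample was not given in the sources used here.

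Endothelial cells line the blood vessels and hold together through junction proteins such as Pecam1 and Cdh5, while the receptors Kdr, Flt1 and Tek carry the signals of vascular growth factors. Leukocytes leave the blood by first rolling on the selectins Selp and Sele and then holding fast, through their integrins, to Icam1 and Vcam1 on the vessel wall. P-selectin (Selp) and von Willebrand factor (Vwf) are stored together in the Weibel-Palade bodies of endothelial cells and in the granules of platelets, whereas E-selectin (Sele) has to be transcribed anew. Myd88 is the adaptor through which Toll-like receptors and the interleukin-1 receptor reach NF-kB, and cytokine signals of this kind are known inducers of Sele, Icam1 and Vcam1.

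Of the 10 genes, Selp and Sele showed the widest range of levels over the arrays, and the sequence around their starts is therefore given first. RefSeq windows of the GRCm38.p6 assembly, from 250 bases before to 50 bases after the annotated start, were found for 6 of the 10 genes (Kdr, Flt1, Tek, Sele, Selp and Icam1) among 32851 windows. Capitals mark matches on either strand to 5 motifs. These were AP-1, searched as TGANTCA, and the TATA box, searched as TATAAA. ETS sites were searched as GGAAGT, and GATA sites as GATAAG. NF-kB sites were searched by the kappaB consensus GGGRNWYYCC, where R is A or G, W is A or T, Y is C or T and N is any base. The Selp window is chr1:164115014-164115313, plus strand, and the Sele window is chr1:164047984-164048283, plus strand.
Selp: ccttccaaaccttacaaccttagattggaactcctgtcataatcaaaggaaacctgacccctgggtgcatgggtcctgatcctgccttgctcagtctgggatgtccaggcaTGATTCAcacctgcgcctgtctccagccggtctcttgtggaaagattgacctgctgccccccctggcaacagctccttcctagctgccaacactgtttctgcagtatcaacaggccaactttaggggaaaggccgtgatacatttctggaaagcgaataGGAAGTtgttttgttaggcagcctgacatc
Sele: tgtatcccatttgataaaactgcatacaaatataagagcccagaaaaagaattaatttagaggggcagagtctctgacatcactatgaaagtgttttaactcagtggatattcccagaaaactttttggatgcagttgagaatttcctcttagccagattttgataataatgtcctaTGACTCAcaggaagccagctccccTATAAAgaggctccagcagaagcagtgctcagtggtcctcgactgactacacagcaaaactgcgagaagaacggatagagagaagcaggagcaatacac
In the Selp window the capitals are TGATTCA, an AP-1 match from base -139 to -133 relative to the start, and GGAAGT, an ETS match from 21 to 26. In the Sele window they are TGACTCA, an AP-1 match from -73 to -67, and TATAAA from -49 to -44. An AP-1 match was present in 7.81% of all windows, an ETS match in 23.8% and a TATA match in 13.6%. GATA matches were in 7.44% of windows, here in that of Tek, and kappaB matches in 4.51%, here in those of Kdr and Flt1. These matches describe the letters of the windows only. Stretches that differ from a searched pattern by a single base were not counted, so a window without a match may still hold a site.

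The share of spots well above background was 57.5% to 67.8% over the arrays, and arrays of 1 group correlated at 0.925 to 0.990. Levels are given as log2 intensity relative to the 75th percentile of the array, so that 0 is the level of the 75th percentile. As a check of the tissue label, Scgb3a2 of secretory cells was at 8.59 to 9.66 on the uninjured arrays. The single Myd88 probe lay between 1.94 and 2.28 in uninjured wild-type and between 1.60 and 2.04 in uninjured Myd88KO tracheas, and between 2.36 and 2.80 after injury in wild-type and 1.54 and 2.09 in Myd88KO. Whether this probe lies in the deleted part of the gene is not given in the sources used here. Arrays with the same replicate number lay together on 1 of 5 slides, which is named here by that number, and slides 2, 3 and 4 were scanned on a first day and slides 1 and 5 on a second.

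The injured Myd88KO arrays differed widely among themselves, which bears on every comparison that includes them. For each array a slope was computed over the 1352 probes that changed with injury in wild-type tracheas, the 10 genes left out. Each genotype was measured from its own uninjured arrays, so that uninjured tracheas average 0 in wild-type and in Myd88KO alike. The scale was set so that injured wild-type tracheas average 1. These averages are fixed by the method. The probes were also chosen on the wild-type arrays, so the injured wild-type range is not an independent measure. The injured wild-type arrays had slopes of 0.884 to 1.12. The injured Myd88KO arrays had slopes of 0.342, 0.973, 0.503, 0.966 and -0.0265 for replicates 1 to 5. Replicates 2 and 4 thus reached the wild-type range and replicate 5 lay within the range of the uninjured arrays of both genotypes (-0.0586 to 0.0834). Scgb3a2 on the injured Myd88KO arrays was at 7.94, 3.07, 5.52, 3.21 and 9.10 in the same order, against 2.59 to 4.16 on the injured wild-type arrays. Injury tests in Myd88KO are therefore given also without replicate 5, for those probes of the 10 genes that were tested. Other comparisons with these arrays are given without it only for some Selp and Vcam1 values and for counts of probes after injury. For Sele and for named genes outside the 10, no fit without it is given. Tests of Selp and Vcam1 are also given within each scanning day.

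Of the 24 probes, 17 from 9 genes passed the filter on dim probes, a signal well above background on 10 or more arrays, and were tested. Second or later probes of Pecam1, Kdr, Flt1 (a pair), Vwf and Vcam1 were well above background on 0 arrays. The only probe of Sele was well above background on 6 arrays and was not tested with the others. A probe was called when its adjusted p was under 0.01 in limma, with the Benjamini-Hochberg adjustment over all 26063 tested probes. In whole trachea, fewer cells of a type and less RNA per cell cannot be told apart.

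Selp, the selectin on which leukocytes roll first, rose with injury in wild-type tracheas on both of its probes. On probe 1 (chr1:164112910-164112969, build not stated in the files) the uninjured wild-type arrays read -1.70, -2.65, -2.45, -2.76 and -2.68 for replicates 1 to 5 and the injured ones 0.39, 0.12, 0.15, -0.83 and 1.07. Every injured wild-type array was above every uninjured one. The mean rose from -2.45 ± 0.436 to 0.18 ± 0.682 (SD, n = 5 in each group), a 6.18-fold difference (log2 difference 2.63, SE 0.42, 95% interval 1.75 to 3.50, limma adjusted p = 0.000791). On probe 2 (chr1:164104808-164104867) uninjured wild-type arrays read -5.16, -5.31, -4.54, -5.59 and -4.67, of which 1 was well above background, and injured ones -1.76, -2.22, -2.57, -3.42 and -1.11, of which all 5 were. Probe 2 passed the filter, with 11 arrays well above background, mainly through its injured arrays. Measured against the lowest signal well above background on the uninjured arrays, the injured level was at least 5.57-fold higher. The fit, which takes the background readings as they are, gave a log2 difference of 2.84 (limma adjusted p = 0.00264), and 1.07 (adjusted p = 0.00448) with normexp background correction, so that its size is not settled.

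In Myd88KO tracheas Selp split by array. On probe 1 the uninjured Myd88KO arrays read -2.67, -2.29, -2.29, -2.38 and -2.44 for replicates 1 to 5 and the injured ones -2.78, -0.57, -1.69, -0.69 and -3.07. Replicates 2, 3 and 4 of the injured group were above all uninjured Myd88KO arrays, and replicates 1 and 5 were below all of them. The difference over the 5 arrays was 0.65 (95% interval -0.22 to 1.53, limma adjusted p = 0.412), and 0.98 (adjusted p = 0.111) without injured replicate 5. Probe 2 read -5.58, -4.33, -5.07, -4.74 and -5.44 uninjured and -5.79, -2.76, -3.56, -2.80 and -5.79 injured, with the same arrays high and the same arrays low. Of these, 2 uninjured and 3 injured arrays were well above background, so the fitted difference of 0.90 (limma adjusted p = 0.391), or 1.31 (adjusted p = 0.113) without replicate 5, rests in part on background readings.

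**Figure D1:**
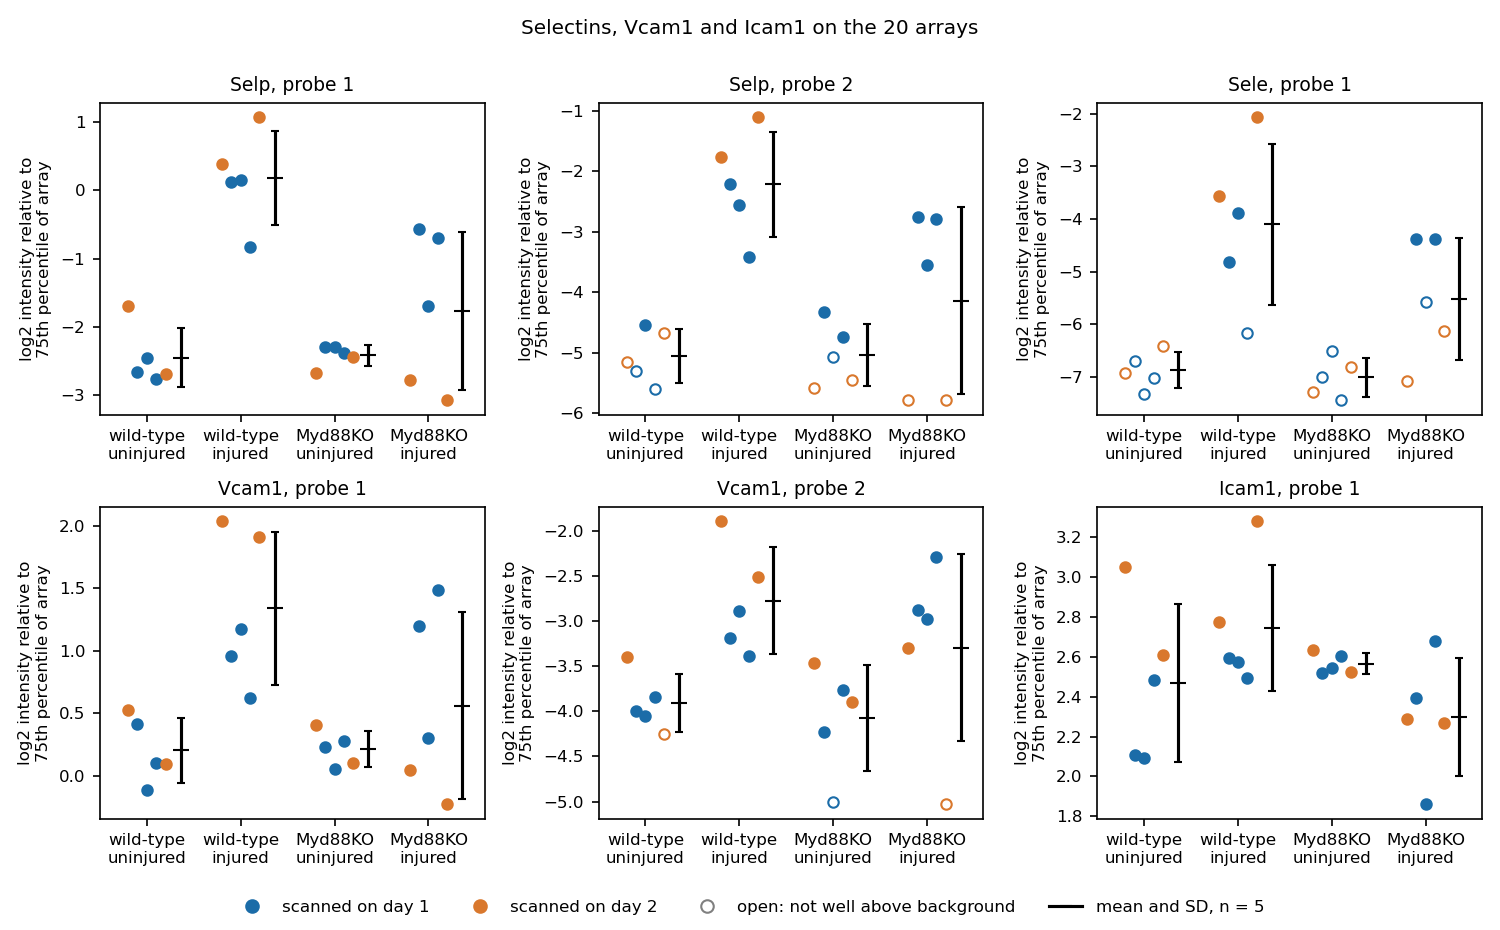
Level of Selp, Sele, Vcam1 and Icam1 probes (vertical axis, log2 intensity relative to the 75th percentile of the array) on each array of the 4 groups, coloured by scanning day, with open points not well above background and the bar giving mean and SD (n = 5). The injured wild-type Selp points on probe 1 (-0.83 to 1.07) lie above all uninjured points, while the injured Myd88KO points range from -3.07 to -0.57.

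Sele, the cytokine-induced endothelial selectin, was dim (chr1:164020976-164021035). In wild-type it read -6.92, -6.70, -7.32, -7.01 and -6.40 without injury and -3.57, -4.82, -3.90, -6.17 and -2.07 after it. No uninjured array of either genotype was well above background, whereas 4 of 5 injured wild-type arrays were. The injured wild-type level was therefore at least 1.65-fold higher, measured against the lowest signal well above background on each uninjured array. The uninjured Myd88KO arrays read -7.28, -7.00, -6.50, -7.44 and -6.80 and the injured ones -7.08, -4.38, -5.58, -4.39 and -6.12, of which replicates 2 and 4 were well above background. No bound could be given for Myd88KO, since the injured mean did not exceed that background limit. With no filter on dim probes, limma gave Sele an adjusted p of 0.00632 for injury in wild-type, 0.227 for injury in Myd88KO and 0.792 for the difference between these 2 responses, and the sizes are not given because they would be measured against background.

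Vcam1, the endothelial partner of the leukocyte integrin that contains Itga4, was higher on every injured than on every uninjured wild-type array but did not pass the threshold. Probe 1 (chr3:115885211-115885270) in wild-type read 0.53, 0.41, -0.11, 0.10 and 0.09 uninjured and 2.04, 0.96, 1.18, 0.62 and 1.91 injured. The difference was 1.14 (SE 0.30, 2.20-fold, limma adjusted p = 0.0181). Leaving out wild-type injured replicate 4 or Myd88KO injured replicate 4 brought it past the threshold (adjusted p = 0.00992 and 0.00930). Probe 2 gave the same difference, 1.14, with a wider error (SE 0.40, limma adjusted p = 0.0716), and its highest uninjured array (-3.40) almost touched its lowest injured one (-3.39). In Myd88KO, probe 1 read 0.41, 0.23, 0.05, 0.28 and 0.10 uninjured and 0.05, 1.20, 0.30, 1.49 and -0.23 injured, with replicates 2 and 4 above the uninjured range on this probe. On probe 2 the Myd88KO arrays read -3.47, -4.23, -5.01, -3.76 and -3.90 uninjured and -3.29, -2.88, -2.98, -2.30 and -5.03 injured. Here replicates 1 to 4 of the injured group were above all uninjured Myd88KO arrays and replicate 5 was below all of them. The Myd88KO differences were 0.35 (limma adjusted p = 0.572) and 0.78 (adjusted p = 0.302) on the 2 probes, and 0.54 (adjusted p = 0.253) and 1.21 (adjusted p = 0.0193) without injured replicate 5.

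Icam1, which binds the integrins of leukocytes and is also made by epithelial cells, did not pass the test in any comparison. Probe 1 (chr9:20905300-20905359) read 3.05, 2.11, 2.09, 2.48 and 2.61 on uninjured wild-type arrays and 2.77, 2.60, 2.58, 2.49 and 3.28 on injured ones. The uninjured Myd88KO arrays lay within 2.52 to 2.63 and the injured ones within 1.86 to 2.68, so that all 4 groups overlapped. The injury difference was 0.28 in wild-type (95% interval -0.12 to 0.67, limma adjusted p = 0.384) and -0.27 in Myd88KO (95% interval -0.67 to 0.13, adjusted p = 0.468). Icam1 probe 2 gave 0.22 and -0.06, with adjusted p of 0.767 and 0.950 in limma. Its level followed the scanning day: the second-day level minus the first-day level averaged -1.03 over the groups, and all second-day arrays lay below the first-day arrays in 3 of the 4 groups.

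Vwf, the adhesive glycoprotein that tethers platelets, was higher on all injured than on all uninjured wild-type arrays on both probes tested, without passing the threshold. Probe 1 (chr6:125709328-125709387) read 2.79, 2.62, 2.77, 3.13 and 3.16 uninjured and 3.56, 3.49, 3.79, 3.51 and 4.14 injured in wild-type. The difference was 0.80 (SE 0.21, 1.75-fold, limma adjusted p = 0.0178), and 0.87 on probe 2 (SE 0.27, adjusted p = 0.0358). Probe 1 passed the threshold without Myd88KO injured replicate 1 (limma adjusted p = 0.00959), and probe 2 passed it with the scanning day as a block (adjusted p = 0.00970). Over 12 processing alternatives, among them a threshold of 0.05, probe 1 passed in 3 and probe 2 in 4. In Myd88KO, probe 1 read 2.86, 3.41, 3.59, 3.01 and 3.14 uninjured and 2.61, 3.77, 3.32, 3.56 and 2.85 injured. Here the groups overlapped fully, with differences of 0.02 and 0.09 on the 2 probes (limma adjusted p = 0.965 and 0.895).

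Pecam1 and Cdh5, the junction proteins of endothelial cells, did not pass the test in any comparison. Pecam1 (chr11:106790116-106791969) read -1.83, -1.09, -1.31, -1.10 and -1.54 uninjured and -1.06, -0.68, -0.98, -1.11 and -0.76 injured in wild-type, a difference of 0.46 (SE 0.30, limma adjusted p = 0.362). In Myd88KO it read -1.71, -0.81, -1.11, -1.17 and -1.80 uninjured and -2.39, -0.65, -0.86, -0.53 and -1.97 injured, a difference of 0.04 (limma adjusted p = 0.959). Replicates 1 and 5 were the lowest in both Myd88KO groups, and second-day arrays were below all first-day arrays in 3 of the 4 groups. Cdh5 probe 1 (chr8:102744763-102744822) read 2.07, 1.51, 1.19, 1.75 and 2.29 uninjured and 2.52, 1.54, 2.13, 1.70 and 2.85 injured in wild-type, a difference of 0.39 (limma adjusted p = 0.335). In Myd88KO it read 1.98, 1.68, 1.84, 1.60 and 2.18 uninjured and 1.43, 1.68, 1.03, 1.71 and 1.67 injured, a difference of -0.35 (limma adjusted p = 0.456). Cdh5 probe 2 gave 0.17 in wild-type and -0.17 in Myd88KO (limma adjusted p = 0.718 and 0.755). The 2 probes of Cdh5 moved in opposite ways with the scanning day, the second-day minus first-day level averaging 0.51 for probe 1 and -0.59 for probe 2. No tested probe of the 10 genes lay wholly below or wholly above in all 4 groups on the second day, beside 5.65% and 3% of 25843 probes.

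The growth factor receptors did not pass the test after injury in either genotype. Kdr, the main signalling receptor for VEGF-A, read 1.91, 1.33, 1.30, 1.99 and 1.99 uninjured and 1.94, 1.31, 1.67, 1.43 and 2.44 injured in wild-type (chr5:75351537-75351596), with a difference of 0.05 (95% interval -0.39 to 0.49, limma adjusted p = 0.902). In Myd88KO it read 2.06, 2.08, 2.05, 1.68 and 1.93 uninjured and 1.31, 1.58, 1.07, 1.22 and 1.81 injured. The injured array was the lower on 5 of 5 slides, though the groups overlapped, and the difference of -0.56 (SE 0.21, 95% interval from -1.005 to -0.123) did not pass after adjustment (limma adjusted p = 0.148, and -0.67 with adjusted p = 0.0509 without injured replicate 5). Flt1, which binds the same ligand as a full-length receptor or as a soluble decoy, showed wild-type differences of 0.01, 0.03 and -0.02 on its 3 tested probes (limma adjusted p at least 0.959). In Myd88KO these were -0.47, -0.55 and -0.54 (limma adjusted p = 0.290, 0.227 and 0.358), and probes 1 and 2 were lower on 5 of 5 slides. Without injured replicate 5 they were -0.59, -0.65 and -0.71 (limma adjusted p = 0.133, 0.107 and 0.155). Markers of tissues around the trachea moved on the same arrays: for injury in Myd88KO the 5 tested adipocyte markers had a median of -0.93, with 4 lower at an unadjusted p under 0.05, and the 4 tested thyroid markers a median of -1.24, with 2 lower, while 0 of either list were called in limma. The summed level of the 6 adipocyte markers on the array, in multiples of the array's 75th percentile, was 153 to 209 in uninjured and 51.1 to 175 in injured Myd88KO tracheas. In wild-type it was 64.0 to 115 uninjured and 32.3 to 140 injured. Before injury the 5 tested markers were higher in Myd88KO by a median of 0.92, with 3 at an unadjusted p under 0.05 and 0 called in limma. The part of these tissues in the Kdr and Flt1 values was not tested. In wild-type the medians of the adipocyte and thyroid markers were -0.20 and -0.10. Tek, the angiopoietin receptor, gave -0.06 and 0.33 in wild-type and 0.11 and -0.09 in Myd88KO on its 2 probes, with limma adjusted p from 0.327 to 0.886.

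**Figure D2:**
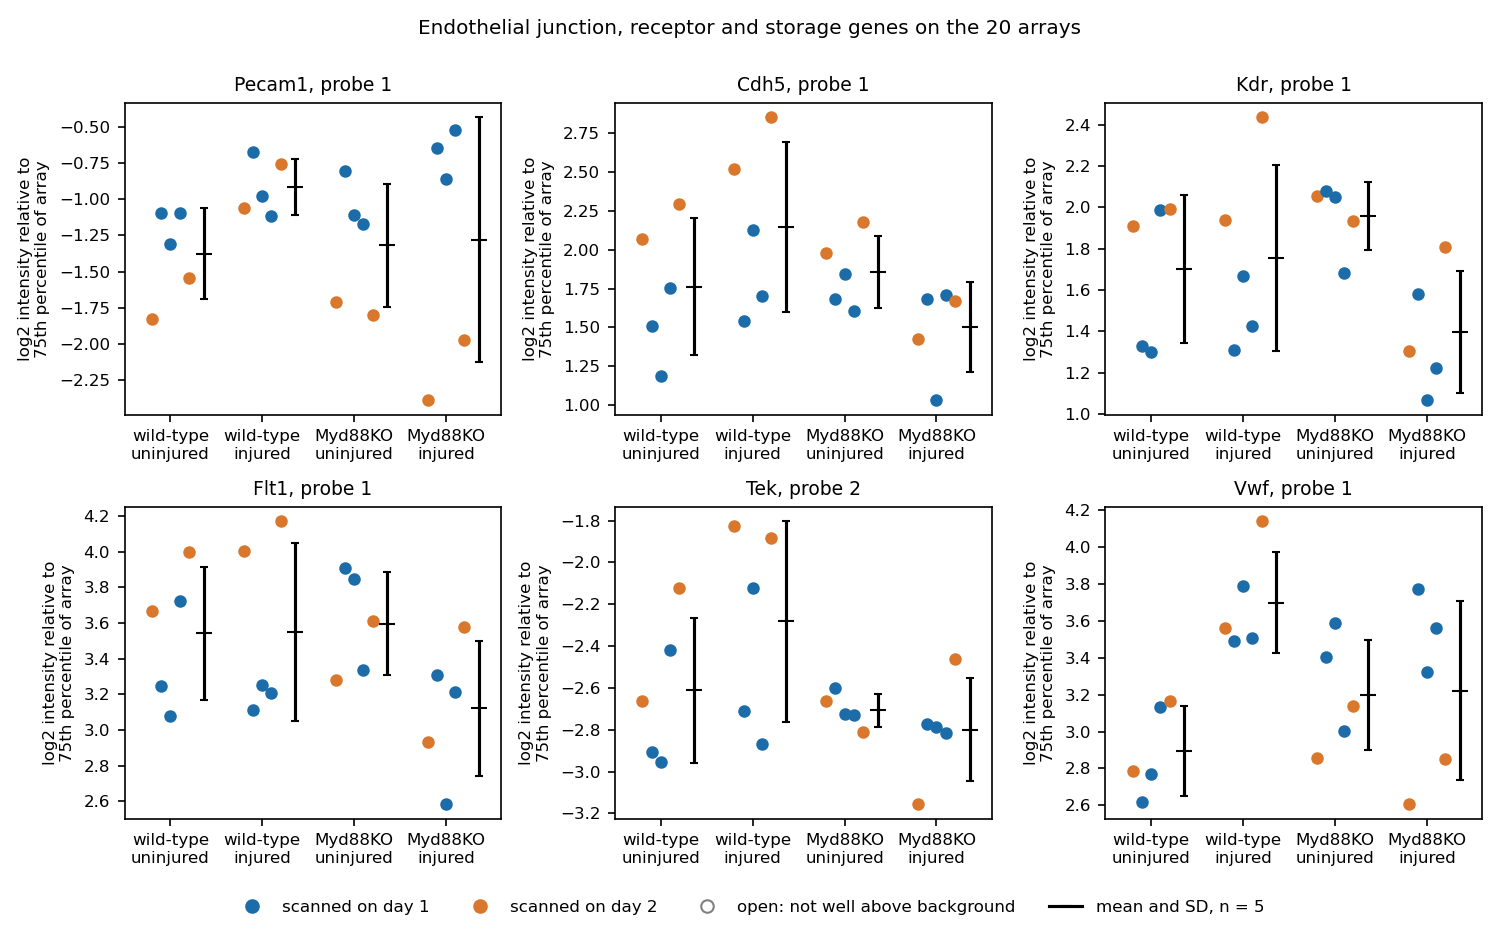
Level of Pecam1, Cdh5, Kdr, Flt1, Tek and Vwf probes (vertical axis, log2 intensity relative to the 75th percentile of the array) on each array of the 4 groups, coloured by scanning day, with mean and SD (n = 5). Injured wild-type Vwf (3.49 to 4.14) lies above uninjured wild-type Vwf (2.62 to 3.16), while the other 5 genes overlap between injured and uninjured tracheas.

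For injury in wild-type tracheas, 2 of the 17 probes were called, both of Selp and both higher, of which probe 2 was mostly at background in uninjured tracheas, beside 5.26% of all tested probes called in either direction and 3.24% called higher. The 6 probes of Selp, Vcam1 and Vwf had injured and uninjured wild-type arrays that did not overlap, all with the injured arrays above, which held for 7.8% of all tested probes. The same 6 had an unadjusted p under 0.05, beside 14.5% of all probes in that direction. The median difference over the 17 probes was 0.33 and 15 of them were positive, while the median of all 26063 probes was 0.00. Within slides, Selp, Vcam1, Vwf and Sele were higher in the injured wild-type array on 5 of 5 slides. With the scanning day as a block Selp stayed called on both probes (limma adjusted p = 0.000821 and 0.00213). Selp was called on the first-day arrays alone (differences 2.43 and 2.41, limma adjusted p = 0.00132 and 0.00338, 3.15% of all probes called) and on the second-day arrays alone (2.92 and 3.48, adjusted p = 0.00580 and 0.00114, 2.55% called). On the second day Vcam1 probe 1 was called as well (1.67, limma adjusted p = 0.00723). The fits within a day were chosen after seeing the data, with 3 arrays per group on the first day and 2 on the second. They use the same arrays as the main fit and are no independent test.

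**Figure D3:**
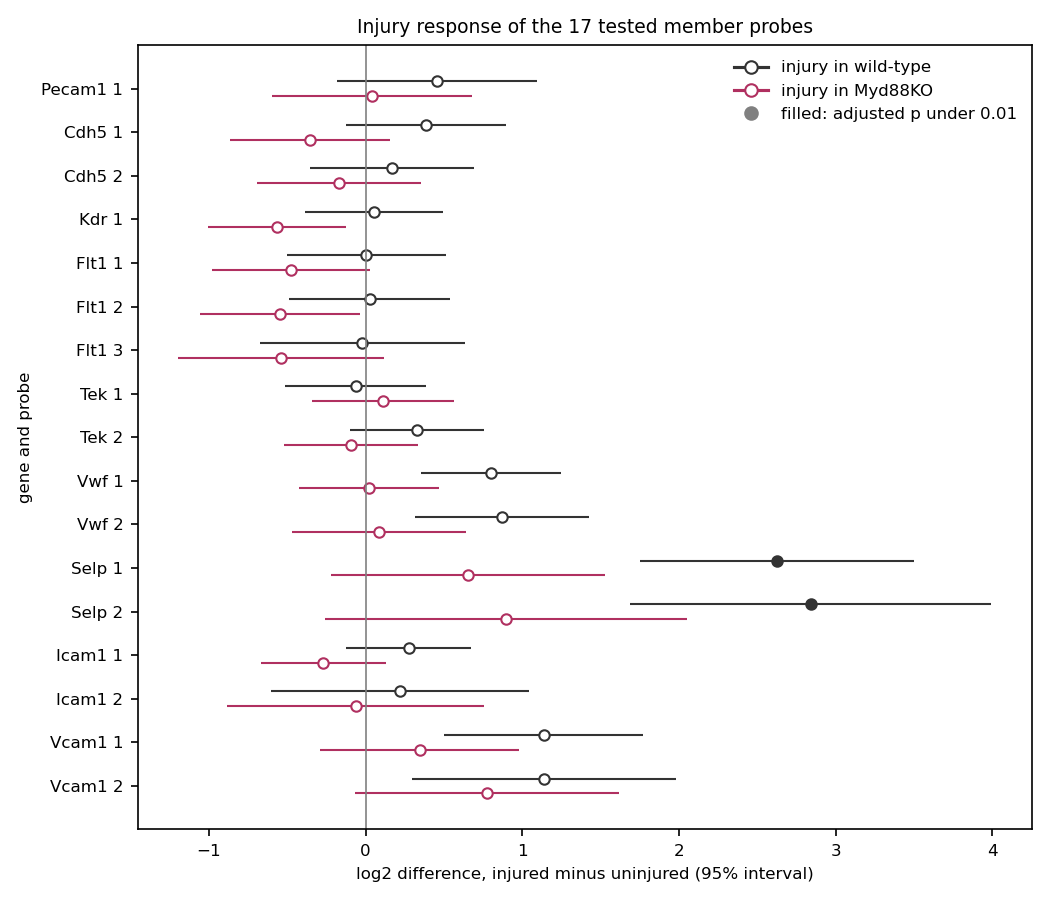
Difference between injured and uninjured tracheas of each genotype for the 17 tested probes (horizontal axis, log2 difference with 95% interval, vertical axis gene and probe number, filled points adjusted p under 0.01). The 2 Selp probes in wild-type (2.63 and 2.84) are the only filled points, and the Myd88KO differences lie between -0.56 and 0.90.

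For injury in Myd88KO tracheas, 0 of the 17 probes were called in limma, beside 0.376% of all probes, and 2 had an unadjusted p under 0.05, Kdr and Flt1 probe 2, both lower (12.2% of all probes in that direction). No probe had groups that did not overlap, beside 3.4% of all probes. Without injured replicate 5, 0 of the 17 probes were called in limma, beside 4.12% of all probes. In that fit 7 of the 17 had an unadjusted p under 0.05, of which 3 were higher (Selp on both probes and Vcam1 probe 2) and 4 lower (Kdr and the 3 Flt1 probes). The share of all probes at that unadjusted level was not counted for this fit, so the 7 cannot be set against it. The other differences without replicate 5 were 0.21 for Pecam1, -0.39 and -0.05 for Cdh5, 0.20 and -0.18 for Tek, 0.12 and 0.21 for Vwf, and -0.26 and 0.14 for Icam1 (limma adjusted p at least 0.359). With injured replicate 5 included, the median difference was -0.06, against -0.07 over all probes, with 8 positive and 9 negative. Without that replicate the median was 0.12, against -0.08 over all probes, with 9 positive and 8 negative. The values within the 2 scanning days, from fits chosen after seeing the data, are given next. The difference between the days was not tested. On slides 2, 3 and 4, Selp was higher in injured Myd88KO tracheas by 1.34 and 1.68 (limma adjusted p = 0.0206 and 0.0152) and Vcam1 by 0.81 and 1.61 (adjusted p = 0.0854 and 0.00644), the last of which was called, beside 4.07% of all probes. On slides 1 and 5, Selp differed by -0.37 and -0.28 and Vcam1 by -0.35 and -0.48, and 0 of the 17 probes and 0% of all probes were called in limma, with 1 of the 17 at an unadjusted p under 0.05. These are the same arrays whose slopes over the remaining probes were given above, and scanning day, slide and mouse cannot be told apart for them.

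**Figure D4:**
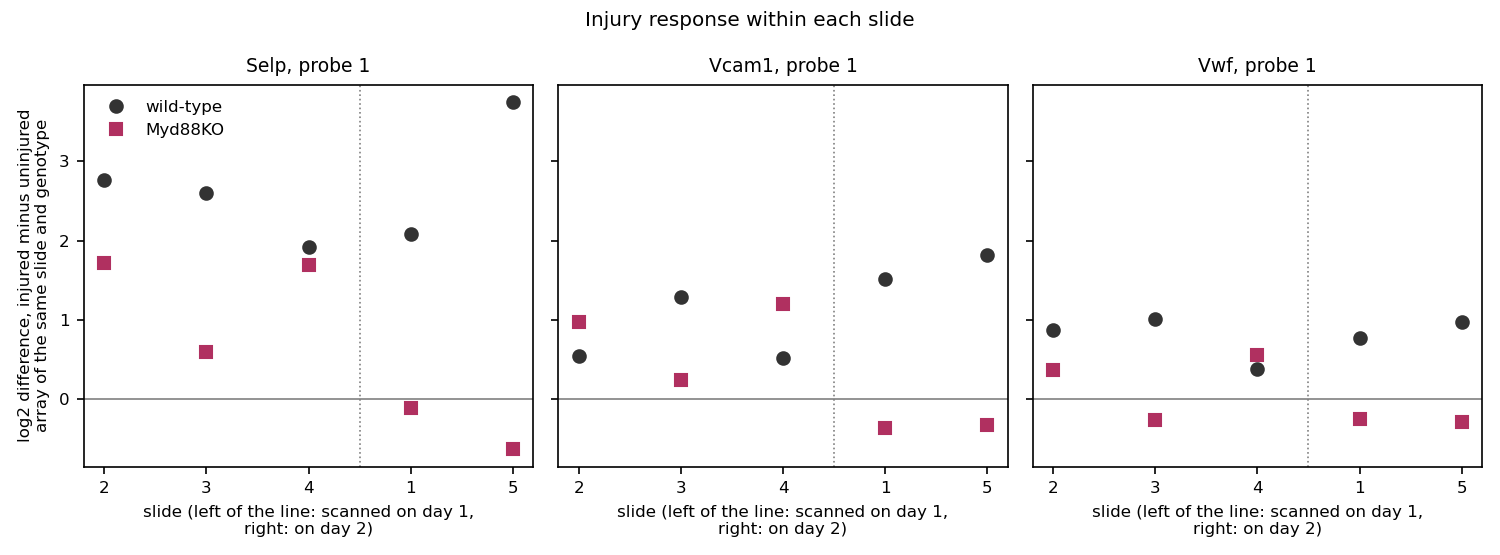
Difference between the injured and the uninjured array of the same slide and genotype (vertical axis, log2 difference) for probe 1 of Selp, Vcam1 and Vwf, by slide (horizontal axis, first-day slides left of the dotted line). Wild-type points are above 0 on all 5 slides, while the Myd88KO points of Selp probe 1 and Vcam1 probe 1 are above 0 on slides 2, 3 and 4 and below 0 on slides 1 and 5.

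Before injury, none of these genes passed the test between Myd88KO and wild-type tracheas. In limma 0 of the 17 probes were called, beside 0.384% of all probes, and 0 had an unadjusted p under 0.05 (5.59% of all probes). No probe had groups that did not overlap, which 2.49% of all probes did. The differences ran from -0.16 for Vcam1 probe 2 to 0.30 for Vwf probe 1, and their 95% intervals reached from -1.13 to 1.18, the widest being those of Selp probe 2. Selp probe 1 differed by 0.03 (95% interval -0.84 to 0.91) and Icam1 probe 1 by 0.10 (-0.30 to 0.50).

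After injury, 16 of the 17 probes were lower in Myd88KO than in wild-type tracheas, with a median difference of -0.46 (-0.03 over all probes), and 0 were called in limma, beside 0.38% of all probes. Of them 7 had an unadjusted p under 0.05, all lower, beside 8.09% of all probes in that direction: Selp on both probes and 1 probe each of Cdh5, Tek, Vwf, Icam1 and Vcam1. No probe had groups that did not overlap (1.93% of all probes). Selp probe 1 differed by -1.94 (SE 0.42, 95% interval -2.81 to -1.07, limma adjusted p = 0.0317) and probe 2 by -1.92 (adjusted p = 0.137). For probe 1 the difference was -1.61 (adjusted p = 0.0932) without injured Myd88KO replicate 5 and -2.24 (adjusted p = 0.00731, past the threshold) without injured Myd88KO replicate 2 in limma. Vcam1 probe 1 differed by -0.78 (limma adjusted p = 0.279), Cdh5 probe 1 by -0.64 (adjusted p = 0.268), Tek probe 2 by -0.52 (adjusted p = 0.291) and Icam1 probe 1 by -0.45 (adjusted p = 0.334). The other tested probes of these genes gave -0.52 for Vcam1, -0.28 for Cdh5, 0.09 for Tek and -0.31 for Icam1 (limma adjusted p at least 0.631). Vwf gave -0.48 and -0.50 (limma adjusted p = 0.361 and 0.457). Without injured Myd88KO replicate 5, Vcam1 differed by -0.58 and -0.09 (limma adjusted p = 0.515 and 0.935), and 16 of the 17 probes were again lower, 8 of them at an unadjusted p under 0.05. For that fit the share of all probes at the unadjusted level was not counted. Leukocyte markers were lower on the same arrays. All 4 tested neutrophil markers were lower at an unadjusted p under 0.05, with a median of -3.49, and so were 3 of 4 macrophage and monocyte markers, with a median over the 4 of -1.06, while 0 of either list were called in limma. Before injury 3 of the 4 neutrophil markers were lower at an unadjusted p under 0.05 in Myd88KO (median -2.15). The part of these cells in the differences of the members was not tested.

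Within the scanning days the same comparison gave unequal values, whose difference was not tested. These fits were chosen after seeing the data, with 3 arrays per group on the first day and 2 on the second. The injured Myd88KO arrays of the second day were replicates 1 and 5, whose slopes were 0.342 and -0.0265. On the first day the genotypes differed after injury by -0.80 and -0.30 for Selp and for Vcam1 by 0.08 and 0.43, and 0 of the 17 probes were called in limma, with 1 at an unadjusted p under 0.05 (0.249% of all probes called). On the second day Selp differed by -3.66 and -4.35 (limma adjusted p = 0.00209 and 0.000615) and Vcam1 probe 1 by -2.07 (adjusted p = 0.00253), so that 3 of the 17 probes were called, beside 4.8% of all probes. All 17 probes were lower in Myd88KO on that day.

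The direct test of whether the response to injury differed between the genotypes called 0 of the 17 probes, and 0% of all probes, in limma. An unadjusted p under 0.05 was reached by 5 of the 17, all with the Myd88KO response minus the wild-type response below 0, beside 6.96% of all probes in that direction. The largest was Selp probe 1, with a Myd88KO response minus wild-type response of -1.98 (SE 0.59, 95% interval -3.21 to -0.74, limma adjusted p = 0.391), followed by Selp probe 2 at -1.94 (adjusted p = 0.423). Vwf gave -0.78 and -0.79 and Cdh5 probe 1 -0.74, with limma adjusted p of 0.410, 0.482 and 0.477. Cdh5 probe 2 gave -0.34 (limma adjusted p = 0.747). Without injured Myd88KO replicate 5 the Selp values were -1.65 and -1.53 (limma adjusted p = 0.407 and 0.474). On the first-day arrays Selp gave -1.10 and -0.74 (limma adjusted p = 0.379 and 0.516, 0% of all probes called). On the second-day arrays, 2 per group, it gave -3.29 and -3.75 (limma adjusted p = 0.0229 and 0.00739). There 1 of the 17 was called, beside 0.568% of all probes.

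**Figure D5:**
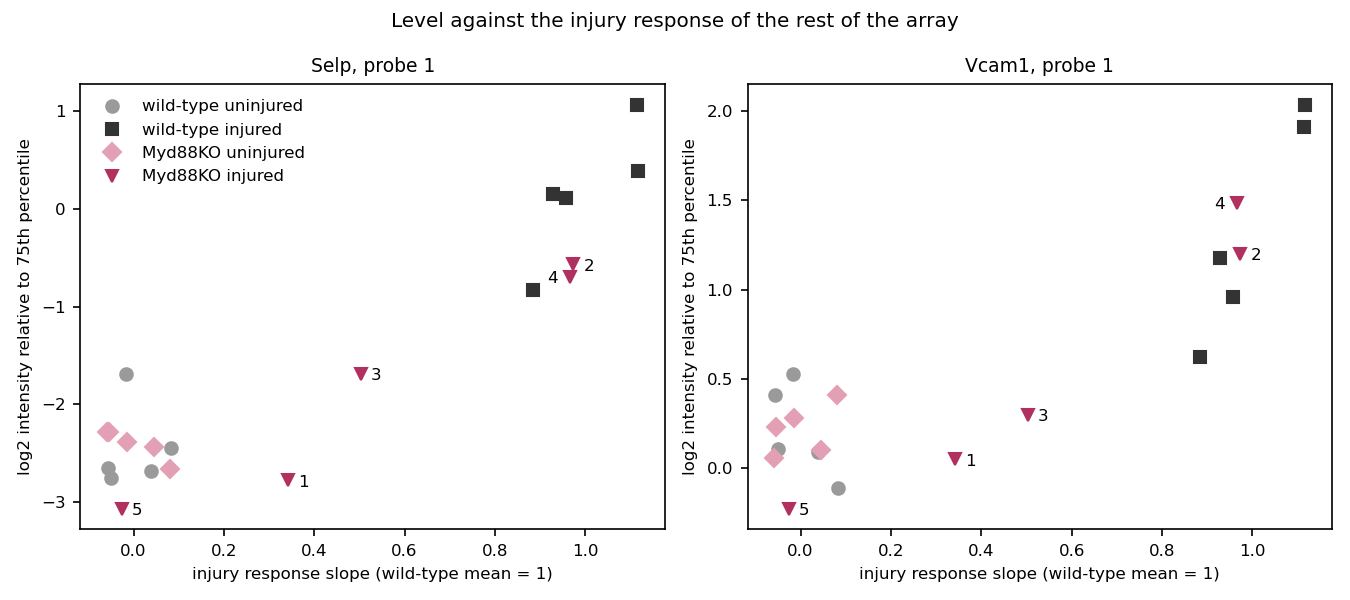
Level of Selp probe 1 and Vcam1 probe 1 (vertical axis, log2 intensity relative to the 75th percentile of the array) against the slope of each array over the 1352 probes called for injury in wild-type (horizontal axis, injured wild-type mean = 1), with injured Myd88KO arrays numbered by replicate. The uninjured arrays average 0 on the horizontal axis within each genotype, by the way the slope was computed. Replicates 2 and 4, with slopes of 0.973 and 0.966, lie among the injured wild-type arrays. Replicate 5 has a slope of -0.0265, within the uninjured range, with Selp and Vcam1 levels (-3.07 and -0.23) below all uninjured arrays.

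Other genes of the same pathways were followed in fixed lists, with 1 probe per gene. Of 18 other endothelial identity genes, 3 rose with injury in wild-type and 0 fell: Ackr1, the chemokine-binding receptor of venules, by 1.35 (limma adjusted p = 0.00423), Plvap, a protein of endothelial fenestrae, by 1.00 (adjusted p = 0.00516) and the transcription factor Sox18 by 0.92 (adjusted p = 0.00550). The median difference of the 18 was 0.43, and 17 were positive. In Myd88KO the median was -0.06 and 0 of the 18 were called in limma, with 3 at an unadjusted p under 0.05, all lower. In the Myd88KO minus wild-type difference after injury, which shares its arrays with these comparisons, 18 of 18 estimates were below 0. Their median was -0.46, against -0.03 over all probes. In limma 0 were called and 11 had an unadjusted p under 0.05, all lower, beside 8.09% of all probes in that direction. These values include injured Myd88KO replicates 1 and 5, and no fit without them is given for this list. Ackr1 read -0.76, 0.55, -0.32, 0.16 and -1.38 on injured Myd88KO replicates 1 to 5, highest on the same 2 arrays as Selp. Of 13 VEGF and angiopoietin ligands and receptors 0 were called in limma in either genotype. At an unadjusted p under 0.05, 1 was higher and 1 lower in wild-type, and 2 were lower in Myd88KO. Among the 13, Nrp2, a co-receptor for VEGF, gave 0.79 in wild-type (limma adjusted p = 0.0114), Vegfa -0.72 (adjusted p = 0.0963) and Tie1, the partner of Tek, 0.62 (adjusted p = 0.243). Of the 4 lymphatic endothelial genes and of the 9 junction and transmigration partners 0 were called in limma in either genotype, with wild-type medians of -0.07 and -0.10. In wild-type 1 lymphatic gene was higher and 1 lower at an unadjusted p under 0.05, and 1 junction or transmigration gene was lower. Other immunoglobulin and mucin adhesion molecules of the vessel wall had 0 of 5 tested genes called in limma, 2 being lower at an unadjusted p under 0.05 in wild-type, with Icam2 at 0.33 (limma adjusted p = 0.468) and Icam4 at -0.61 (adjusted p = 0.158).

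The leukocyte partners of these molecules included 7 genes that rose with injury in wild-type. Of 11 genes for selectin ligands and the enzymes that decorate them, 4 rose in injured wild-type tracheas and 0 fell, with a median of 0.71. These included Selplg, the ligand of P-selectin, by 2.01 (limma adjusted p = 0.000482), the fucosyltransferase Fut7 by 1.13 (adjusted p = 0.00813) and the sialomucin Spn by 1.59 (adjusted p = 0.00940). Of 7 leukocyte integrins 3 rose and 0 fell, with a median of 1.06: Itgb7 by 1.06 (limma adjusted p = 0.00143), Itgb2 by 2.66 (adjusted p = 0.00332) and Itgax by 1.58 (adjusted p = 0.00617). Itga4, which pairs with Itgb1 or Itgb7 to bind Vcam1, gave 0.52 (limma adjusted p = 0.449). In Myd88KO 0 genes of either list were called in limma, with medians of 0.18 and 0.30. There 4 selectin ligand genes were higher and 1 lower at an unadjusted p under 0.05, and 3 integrins were higher. Of 5 tested cytokines that induce adhesion molecules and 7 of their transcriptional regulators 0 were called in limma in either genotype. In wild-type 1 gene of each list was higher and 1 lower at an unadjusted p under 0.05. Il1b gave 3.84 in wild-type (limma adjusted p = 0.0228), Tnf -0.21 (adjusted p = 0.839) and Irf1 0.56 (adjusted p = 0.0243).

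Platelets also carry Selp and Vwf, and markers of platelets and leukocytes moved on the same arrays. Of 9 platelet and megakaryocyte markers 7 were tested, of which 2 rose and 1 fell with injury in wild-type. The chemokine genes Ppbp, by 6.10 (limma adjusted p = 0.000733) and Pf4, by 2.52 (adjusted p = 0.00534), rose, and Treml1, a receptor of platelet granules, fell by 1.53 (adjusted p = 0.00889). The platelet receptor genes Gp9 and Itga2b gave 0.87 and 0.34 (limma adjusted p = 0.128 and 0.438), and Gp1ba was well above background on 0 arrays. The summed level of the 9 platelet markers, in multiples of the array's 75th percentile, was 6.52 to 13.1 in uninjured wild-type, 48.2 to 137 in injured wild-type, 6.64 to 16.6 in uninjured Myd88KO and 8.54 to 91.6 in injured Myd88KO. Pf4 and Ppbp made up nearly all of it, since the other 7 markers together summed to 0.520 to 0.885 in uninjured and 0.389 to 0.525 in injured wild-type, and to 0.554 to 0.907 and 0.361 to 0.672 in Myd88KO, so that the sum stands for these 2 genes and not for platelets as a class. All 4 macrophage and monocyte markers measured rose with injury in wild-type, Cd68 by 3.27 (limma adjusted p = 0.000907), and their summed level was between 6.34 and 8.23 uninjured and between 16.2 and 46.9 injured. In Myd88KO it was between 6.41 and 9.45 uninjured and between 6.06 and 37.7 injured. Of 4 neutrophil markers 1 rose in wild-type, Csf3r by 4.05 (limma adjusted p = 0.00380), with 2 of 5 uninjured arrays well above background. All 4 were higher at an unadjusted p under 0.05, with a median of 3.34, and in Myd88KO 2 were, with a median of 2.30. The summed level of the 5 neutrophil markers on the array was 2.499 to 33.1 in uninjured and 14.4 to 257 in injured wild-type, and 0.362 to 2.31 in uninjured and 0.396 to 41.6 in injured Myd88KO. The part of these cells in the Selp, Vwf, Icam1 and Vcam1 levels was not tested.

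The genes with the closest pattern to 3 of the members were sought over the 20 arrays, which share groups, slides and scanning days. For Selp probe 1 these were Ackr1 (Pearson r = 0.97), Mmp19 (0.96) and Cd300lf (0.96), and 0.92, 0.88 and 0.85 after the group means were removed. For Cdh5 probe 1 they were Zfp521, Arid3a and Ano6, each at 0.92, and 0.90, 0.96 and 0.93 with group means removed. For Icam1 probe 1 they were Itgal (0.91), Ifnar2 (0.86) and Csf1 (0.85), and 0.91, 0.82 and 0.82 with group means removed. The second probes of Cdh5 and Icam1, which moved the other way with the scanning day, were not used. Scanning day was not removed from these values.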

How the data were processed

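Whole-trachea RNA from 20 mice was hybridized to 1 Agilent one-colour array each. The authors deposited the output of Agilent Feature Extraction 9.5.1.1, whose processed intensity is background-corrected and detrended within the array and not scaled between arrays. They also deposited a value table, which holds the same intensity rounded and was used as an alternative. Groups and replicate numbers came from the sample titles. The labels give an age of 4 months and 600 ng of labelled RNA. The study's methods give other figures, which could not be resolved per sample. The 1639 control spots were left out, as were 1960 values marked as outliers. Spots of 1 probe were averaged and log2 intensity, computed here from the deposited intensity, was taken minus the array's 75th percentile. Different probes of a gene were kept apart.

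Probes well above background on at least 10 of 20 arrays were tested. All 20 arrays were fitted together in limma 3.58.1 under R 4.3.3 (lmFit, contrasts and eBayes), with Benjamini-Hochberg adjustment within each of 5 contrasts over 26063 probes, and an adjusted p under 0.01 was called, the threshold of the study's methods. The procedure was tested on simulated data. Alternatives were normexp (offset 50), quantile and median scaling, other filters, the value table, slide or scanning day as a block, array weights, fits of 2 groups, the methods' one-way test, a threshold of 0.05 and leaving out each array. Fits within a scanning day and the unadjusted one-way test were chosen after seeing the data. The members and lists were chosen with earlier results of these data known. The text names every member probe, and from each list up to 5 genes per contrast, called genes first and then by size. A gene that this rule names among the selectin ligands is not reported here. Probes were named through RefSeq symbols. The files state no genome build for probe positions, and RNA extraction batches are not given in the sources used here. Replicates are described as biological, and 5 arrays per group limit the precision.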

Additional observations from a re-analysis of the deposited data

Results flagged for a closer look

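Selp probe 1 on uninjured wild-type replicate 1 read -1.70, apart from the other 4 arrays of its group, of which the nearest read -2.45. The gap made up 0.712 of the range of the group, just above the Dixon limit for 5 samples. It was 1 of 72 groups of member probes examined in this way, and chance alone marks about 1 group in 20. Selp probe 2 on the same array read -5.16, inside the range of its group.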

How the results depend on the processing

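In injured against uninjured wild-type tracheas, both Selp probes were called under all 12 processing alternatives (differences 2.09 to 2.78 and 1.07 to 3.10) and in all 20 fits that left out 1 array. The count of called probes, 2, became 4 with centring on the array median and with array weights (Vcam1 probe 1 and Vwf probe 1 added), 5 at an adjusted p under 0.05 and 6 with the methods' one-way test unadjusted. With the scanning day as a block it became 3, Vwf probe 2 added, which was called in 4 of the 12 alternatives. The count was 2 to 3 when each array was left out in turn. For injury in Myd88KO, 0 became 1 with the unadjusted one-way test (Kdr, lower) and 1 on scanning day 1 only (Vcam1 probe 2, higher), and stayed at 0 to 0 without each array. For injured Myd88KO against injured wild-type, 0 became 1 at an adjusted p under 0.05 and 3 on scanning day 2 only, with 0 to 1 when each array was left out. For the difference between the responses, 0 became 1 on scanning day 2 only. The comparison of uninjured tracheas gave 0 under all of these. Of 2924 recomputed differences 129 changed sign, 0 of them called ones. Those that changed sign on a scanning day included injury in Myd88KO on day 2 only, where Selp probe 2 was -0.28 (0.90 over all arrays, the largest of the 129 by that size), Selp probe 1 -0.37 and Vcam1 -0.35 and -0.48, and injured Myd88KO against wild-type on day 1 only, where Vcam1 was 0.0754 and 0.43. Why the days differ was not tested. Over all probes, the 98 called for injury in Myd88KO became 1075 without injured Myd88KO replicate 5 and 1901 with array weights.

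Arrays with the same replicate number shared a slide. Of 30 pairs of deviations from the group means, 23 correlated above 0.1 (range -0.261 to 0.478). Pairs with different numbers were not examined, so these values cannot show how much a slide adds. The main fit took the numbers neither as pairs of mice nor as a block. A fit with the replicate block changed no count of called probes: 2 for injury in wild-type, both Selp (limma adjusted p = 0.00275 and 0.00565), and 0 in the other comparisons. The dim probes limit what can be said of Sele, and the Selp probe 2 levels in uninjured tracheas are mostly at background.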

Other observations

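Other cell types were followed on the same arrays. Of 5 secretory and ciliated epithelial markers 3 fell with injury in wild-type tracheas: Scgb1a1, the club cell secretoglobin, fell by 7.91, Scgb3a2 fell by 5.77 and the ciliary dynein gene Dnah5 fell by 3.94 (limma adjusted p = 1.05e-05, 0.000394 and 0.00319). Scgb1a1 fell by 6.24 in Myd88KO tracheas (limma adjusted p = 0.000690), with levels of 4.79, -0.84, 2.72 and 0.18 on injured replicates 1 to 4. The spot of replicate 5 was marked as an outlier by the scanner software and left out, so that this fall rests on 4 injured arrays. On replicate 5 Scgb3a2 read 9.10 and Dnah5 1.78, within their ranges on uninjured Myd88KO arrays. Of the 5 markers only Scgb1a1 was called for injury in Myd88KO in limma, and 3 were lower at an unadjusted p under 0.05. Of 6 mural cell markers, 4 fibroblast markers, 4 basal epithelial markers and 3 tested lymphocyte markers 0 were called in limma for injury in either genotype, with 2, 1, 1 and 0 at an unadjusted p under 0.05 in wild-type. For injury 0 of the 4 skeletal muscle and 3 cartilage markers were called in limma in either genotype, with medians of -0.23 and 0.04 in wild-type and -0.60 and -0.50 in Myd88KO, and 1 of each list at most had an unadjusted p under 0.05. The potassium channel gene Kcnj8 of pericytes gave 0.62 in wild-type (adjusted p = 0.0386).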
